A study of Mus musculus with 12 samples.

Results

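The transcripts of 8 aquaporin genes, Aqp1, Aqp3, Aqp4, Aqp5, Aqp7, Aqp8, Aqp9 and Aqp11, were followed through the cycle of the seminiferous epithelium in whole testes of adult mice. They are 8 of 12 aquaporin genes measured and 8 of 19938 genes in all. The members were chosen by their log2 intensities across the 6 stage groups, with the wide range of Aqp8 in view, so their levels are given as a description and carry no test. A total of 12 Affymetrix Mouse Gene 1.0 ST arrays held 2 samples in each of 6 groups of synchronized testes. The groups are named for the stages that most tubules shared, from XII-I through II-IV and IV-VI to VII and then VIII-IX and last IX-XI. All 6 groups came from male mice of a mixed 129/C57BL6 background that had been given WIN 18,446, an inhibitor of retinoic acid synthesis, at 100 ug per g daily for 7 days, from 2 to 8 days postpartum. At 9 days postpartum every group was also injected with retinoic acid (200 ug), and recovery lasted 43 to 49 days. No untreated or unsynchronized testis was analysed here, and separate animals are not stated for the samples of a group. Whether the spread within a group is technical or between animals is therefore not known.

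Aquaporins are membrane channels that let water cross along an osmotic gradient. Some of them, the aquaglyceroporins Aqp3, Aqp7 and Aqp9 among the genes described here, also pass glycerol and other small solutes, and Aqp8 can pass ammonia and hydrogen peroxide. In the testis they are known for fluid secretion and reabsorption around the tubules, for the loss of cytoplasm from spermatids and for the volume control of sperm. Whole testis mixes all of its cell types, so a transcript carried by fewer cells cannot be told apart from one with less RNA per cell.

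The arrays of XII-I, II-IV, IV-VI and VII followed the order of their labels, while those of VIII-IX and IX-XI did not. When the 12 arrays were placed around the ring formed by the first principal component (43.6% of the variance) and the second (35.4%) of all genes other than aquaporins, XII-I sample 2 and II-IV sample 2 lay side by side, as did II-IV sample 1 and IV-VI sample 2. The arrays of VIII-IX and IX-XI interleaved. A total of 9 arrays correlated best with an array of another group, and partners within a group correlated across genes at 0.987 to 0.995. VII sample 2 carried the highest summed intensity of 5 of 12 marker lists, those of Sertoli, Leydig, peritubular myoid, macrophage, and efferent duct and epididymal cells. The sum of the last list was mostly Lcn2, with a mean of 12.79 log2 in VII. No other marker of that list had a group mean above 8.02 log2. Of its 13 measured markers, 8 had a mean below 7.25 log2, the bound of the dimmest 30% of probe sets. Its Leydig sum was 22086, against 16608 at most on the other arrays, and its macrophage sum was 5105, against 3077 at most. Germ cell markers were present on every array, with spermatocyte sums of 35853 to 39127. The array medians lay between 296.9 and 309.1 in intensity. Precision is bounded by the 2 arrays per group.

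Over the 8 aquaporins, the group means differed least for Aqp4 and most for Aqp8. Between the highest and the lowest group mean, 2 of the 8, Aqp8 and Aqp9, differed at least 2-fold, where 9.36% of all genes did so. The median range of the 8 was 0.43 log2, beside 0.34 log2 over all genes. Each aquaporin had 1 probe set with a single gene symbol, and probe sets of different genes are not compared in level. Between the highest and lowest groups the arrays did not overlap for 7 of the 8, Aqp5 being the exception, and for 89.4% of all genes. Since the members were chosen on these levels, nothing is read from any of these comparisons.

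Aqp8, a water channel that in other tissues sits in epithelial and inner mitochondrial membranes and whose loss in mice enlarges the testis, was high in the middle of the cycle. Its log2 intensity (probe set 10557300) was 8.15 and 9.42 in XII-I, 11.03 and 9.82 in II-IV, 10.97 and 10.96 in IV-VI, 10.76 and 10.90 in VII, 7.96 and 7.13 in VIII-IX, and 8.17 and 9.51 in IX-XI. All 6 arrays of II-IV, IV-VI and VII lay between 9.82 and 11.03, and all 6 arrays of the remaining groups between 7.13 and 9.51. The mean was 10.97 ± 0.01 (SD, n = 2) in IV-VI, against 7.54 ± 0.58 in VIII-IX, a 10.7-fold difference. Only 0.0802% of all genes had a wider range of group means, which places Aqp8 at rank 17 of 19938.

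In order of their means, the groups ran from IV-VI and VII (10.83 ± 0.10) through II-IV (10.43 ± 0.86), IX-XI (8.84 ± 0.95) and XII-I (8.79 ± 0.90) to VIII-IX. The arrays of VII and II-IV overlapped, as did those of IX-XI and XII-I, so these neighbours did not differ beyond their spread. The steps between II-IV and IX-XI (1.59 log2) and between XII-I and VIII-IX (1.24 log2) separated the arrays, and so did the small step between IV-VI and VII (0.14 log2). The 2 samples differed by over 1 log2 in XII-I, II-IV and IX-XI, and by 0.14 log2 or less in IV-VI and VII. The step of 1.59 log2 separated II-IV sample 2, at 9.82, from IX-XI sample 2, at 9.51. With VIII-IX and IX-XI taken as 1 group of 4 arrays, a choice made after seeing the data, the range was 2.77 log2 in place of 3.42 log2.

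Aqp9, an aquaglyceroporin best known from liver, leukocytes and the epididymis and described in rat Leydig cells, had the reverse course. Its log2 intensity (probe set 10594825) was 11.42 and 10.89 in XII-I, 9.80 and 10.66 in II-IV, 9.57 and 9.63 in IV-VI, 9.67 and 9.64 in VII, 10.82 and 11.17 in VIII-IX, and 10.86 and 10.24 in IX-XI. The 4 arrays of IV-VI and VII were the lowest of the 12 and lay within 0.10 log2 of each other. The mean was 11.15 ± 0.37 (SD, n = 2) in XII-I, against 9.60 ± 0.04 in IV-VI, a 2.94-fold difference. Of all genes, 3.06% had a wider range. XII-I and VIII-IX (11.00 ± 0.25) overlapped, as did VIII-IX and IX-XI (10.55 ± 0.44), and IX-XI and II-IV (10.23 ± 0.61). II-IV stood above VII (9.66 ± 0.02) without overlap, and VII above IV-VI by 0.06 log2.

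**Figure D1:**
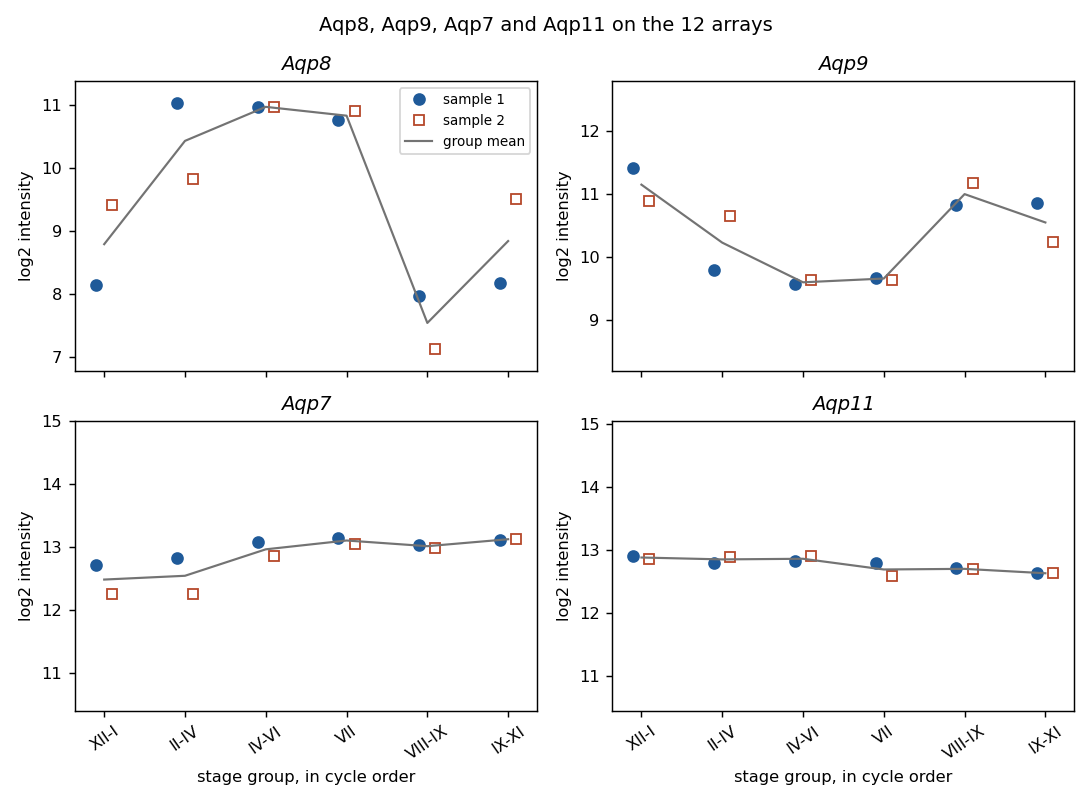
Log2 intensity of Aqp8, Aqp9, Aqp7 and Aqp11 (vertical axis, the same span of 4.6 log2 units in each panel) in the 6 stage groups in cycle order. Points are the 2 samples of a group and the line joins the group means. Aqp8 is highest in IV-VI at 10.97 and lowest in VIII-IX at 7.54, Aqp9 is lowest in IV-VI at 9.60, and Aqp7 and Aqp11 stay within 0.64 and 0.25 log2.

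Aqp8 and Aqp9 mirrored each other across single arrays as well as across groups. Over the 12 arrays their log2 intensities correlated at r = -0.91, and 1.74% of all genes had a lower correlation with Aqp8. The 12 points share the cycle and, within a group, possibly an animal, so this is a description. The sample of a group that was higher for Aqp8 was the lower one for Aqp9 in 6 of 6 groups. Sample 2 minus sample 1 was 1.27 log2 for Aqp8 and -0.53 for Aqp9 in XII-I, -1.21 and 0.86 in II-IV, -0.82 and 0.35 in VIII-IX, and 1.34 and -0.63 in IX-XI. In IV-VI and VII the differences were small, at -0.01 and 0.06 log2 in IV-VI and 0.14 and -0.03 in VII. Of all genes, 4.55% had a sign opposite to Aqp8 in all 6 groups and 1.66% the same sign.

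**Figure D2:**
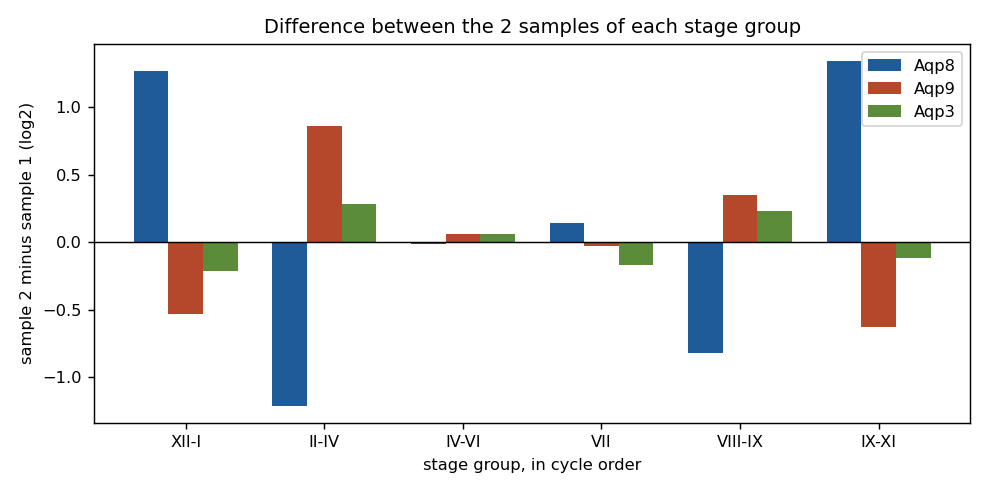
Sample 2 minus sample 1 in log2 intensity (vertical axis) for Aqp8, Aqp9 and Aqp3 (bars) in each of the 6 stage groups. Bars of Aqp8 point away from those of Aqp9 and Aqp3 in all 6 groups, from -1.21 in II-IV to 1.34 in IX-XI for Aqp8.

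The values are given next in the order of the arrays around the ring, in which some partners of a group lay apart. Starting at XII-I sample 1, Aqp8 was 8.15, then 9.42 on XII-I sample 2, 9.82 on II-IV sample 2 and 11.03 on II-IV sample 1. It stayed between 10.76 and 10.97 on the 4 arrays of IV-VI and VII, and was then 9.51 on IX-XI sample 2, 7.96 on VIII-IX sample 1, 8.17 on IX-XI sample 1 and 7.13 on VIII-IX sample 2. Aqp9 along the same arrays was 11.42, 10.89, 10.66 and 9.80, then 9.57 to 9.67, then 10.24, 10.82, 10.86 and 11.17. The positions came from the same arrays, where 522 genes correlated with Aqp8 above 0.9 and 464 below -0.9. Leaving out the aquaporin genes therefore does not make the ring independent of these levels, and nothing is read from a smooth course.

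**Figure D3:**
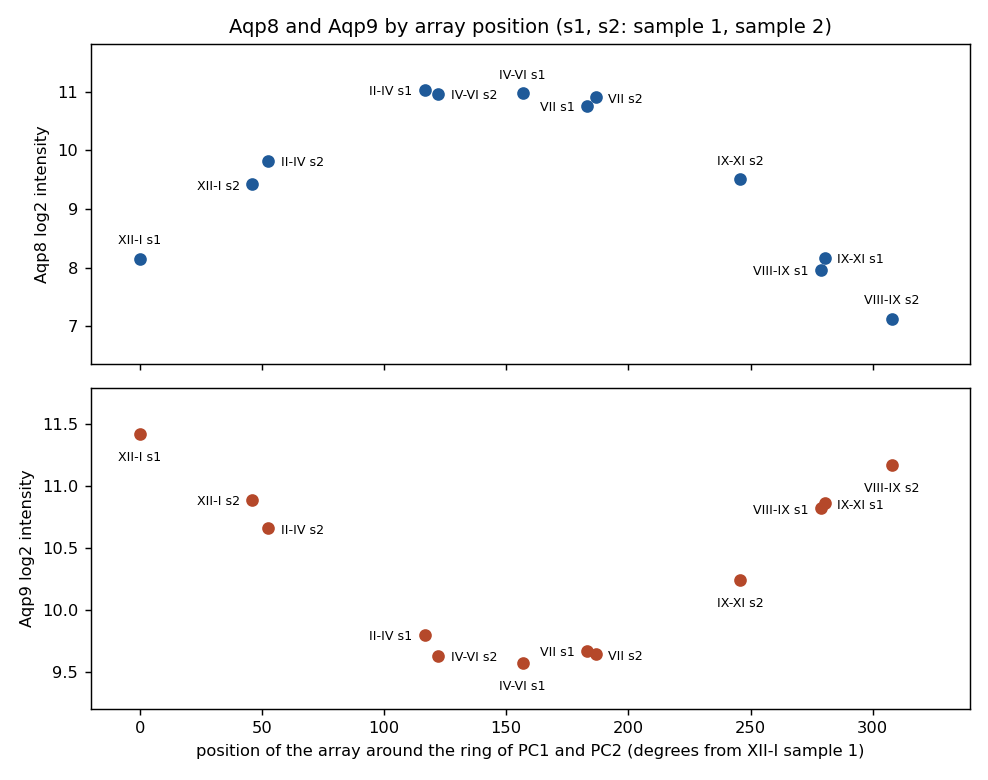
Log2 intensity of Aqp8 (top) and Aqp9 (bottom) against the position of each array around the ring of the first 2 principal components, in degrees from XII-I sample 1. Each point is 1 array, labelled by stage group and sample. Aqp8 is at 11.03 on II-IV sample 1 and 7.13 on VIII-IX sample 2, and Aqp9 is at 9.80 and 11.17 on the same arrays.

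Marker levels of the main cell types are given as summed intensities. The summed intensity of 13 measured Sertoli cell markers of 14 ranged from 21006 to 21060 in XII-I, 21916 to 23491 in II-IV, 22326 to 22750 in IV-VI, 21691 to 29182 in VII, 19749 to 21064 in VIII-IX and 19356 to 20225 in IX-XI. Its highest group mean, in VII, was 1.29-fold its lowest, in IX-XI. For 6 measured Leydig cell markers of 8 the sum was 1.63-fold higher in VII than in IX-XI, ranging from 14779 to 16608 in XII-I, 13785 to 15457 in II-IV, 14798 to 15272 in IV-VI, 15781 to 22086 in VII, 12315 to 12408 in VIII-IX and 8760 to 14409 in IX-XI. The highest Leydig value was that of VII sample 2 and the lowest that of IX-XI sample 2. The sum of 8 round spermatid markers was 14503 to 18505 in XII-I, 19378 to 31125 in II-IV, 33224 to 36723 in IV-VI, 33281 to 37398 in VII, 20869 to 27374 in VIII-IX and 27318 to 32841 in IX-XI. Like Aqp8, this sum was high in IV-VI and VII. Unlike Aqp8, it was lowest in XII-I rather than VIII-IX, and it was not lower in IX-XI than in II-IV. The sum of 8 elongating spermatid markers was highest in VIII-IX (72345 to 74380) and lowest in IV-VI (50080 to 54029), with 65955 to 68926 in XII-I, 55818 to 66434 in II-IV, 53859 to 57904 in VII and 64601 to 68630 in IX-XI. Single markers could range more widely than their sum. Tnp1, a transition protein, ranged most of the elongating spermatid markers, 7.01-fold between VIII-IX and IV-VI (limma's F test, adjusted p = 0.030). Catsper3, a sperm calcium channel subunit, ranged most of the round spermatid markers, 4.41-fold between IV-VI and XII-I (adjusted p = 0.063). At least 2-fold ranges were seen for 6 of the 8 round and 2 of the 8 elongating spermatid markers, beside 9.36% of all genes. Of the round spermatid markers, Tssk1 was highest in IX-XI and Tssk2 in VIII-IX. Of the elongating ones, Akap4 was highest in II-IV and Odf1 in IV-VI, where Tnp1 was lowest. No marker was at 0, since the deposited values have no 0. The part of these cell types in the levels of Aqp8 and Aqp9 was not tested.

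Aqp3, an aquaglyceroporin of skin and kidney that in mouse sperm serves the response to osmotic change, shared part of the course of Aqp9 at a smaller scale. Its log2 intensity (probe set 10512156) was 7.54 and 7.33 in XII-I, 7.27 and 7.55 in II-IV, 7.27 and 7.32 in IV-VI, 7.33 and 7.15 in VII, 7.62 and 7.85 in VIII-IX, and 7.79 and 7.67 in IX-XI. The 4 arrays of VIII-IX and IX-XI lay above the other 8, which include both of XII-I, the group where Aqp9 was highest. The mean was 7.73 ± 0.16 (SD, n = 2) in VIII-IX, against 7.24 ± 0.12 in VII, a 1.41-fold difference. These levels were dim: the dimmest 30% of probe sets by mean lay below 7.25 log2, and VII sample 2 was under that bound. IX-XI (7.73 ± 0.09) and VIII-IX overlapped, and XII-I, II-IV, IV-VI and VII overlapped each with the next in the order of means. Over the 12 arrays Aqp3 correlated with Aqp8 at r = -0.87 and with Aqp9 at r = 0.73, and its within-group differences had the sign of Aqp9 and opposed Aqp8 in 6 of 6 groups.

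The sequences before the transcription starts of these 3 genes are printed because Aqp8 ran against Aqp9 and Aqp3. They are the 250 bases before each start in RefSeq on GRCm38.p6, read 5′ to 3′ on the gene's own strand. Aqp8 lies at chr7:123462044-123462293 on the + strand. Aqp9 has 2 starts on the - strand, at chr9:71163290-71163539 and chr9:71162634-71162883. Aqp3 lies at chr4:41098184-41098433 on the - strand. Capitals mark any match, on either strand, to the TATA box TATAAA, the CCAAT box CCAAT, the cyclic AMP response element TGACGTCA, the nuclear receptor core AGGTCA, the androgen and glucocorticoid receptor core AGAACA, the RFX core GTTGCC or the GATA motif GATAAG.
Aqp8: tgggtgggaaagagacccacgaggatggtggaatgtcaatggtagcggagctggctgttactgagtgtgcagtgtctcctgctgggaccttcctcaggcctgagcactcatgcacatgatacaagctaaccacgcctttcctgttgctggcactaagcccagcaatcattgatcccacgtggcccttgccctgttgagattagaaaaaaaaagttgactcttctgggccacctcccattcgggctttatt
Aqp9, start farther upstream: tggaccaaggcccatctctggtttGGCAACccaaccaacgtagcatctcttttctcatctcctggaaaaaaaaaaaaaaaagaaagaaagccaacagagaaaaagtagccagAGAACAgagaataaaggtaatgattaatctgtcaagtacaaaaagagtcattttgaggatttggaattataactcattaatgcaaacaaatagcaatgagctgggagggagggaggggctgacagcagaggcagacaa
Aqp9, start farther downstream: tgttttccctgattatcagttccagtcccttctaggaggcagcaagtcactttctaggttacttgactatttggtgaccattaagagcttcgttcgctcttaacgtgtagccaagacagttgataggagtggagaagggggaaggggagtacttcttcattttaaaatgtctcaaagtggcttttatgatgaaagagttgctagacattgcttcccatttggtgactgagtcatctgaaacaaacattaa
Aqp3: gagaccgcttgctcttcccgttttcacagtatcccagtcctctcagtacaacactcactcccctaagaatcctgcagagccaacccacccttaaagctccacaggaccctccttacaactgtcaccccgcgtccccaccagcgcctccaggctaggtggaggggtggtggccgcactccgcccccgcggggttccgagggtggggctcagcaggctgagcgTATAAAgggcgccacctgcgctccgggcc

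None of the 7 motifs lay in the Aqp8 window or in the downstream Aqp9 window. The upstream Aqp9 window held GTTGCC on the reverse strand, 226 bases before the start, and AGAACA 138 bases before it. Aqp3 held TATAAA 29 bases before its start. Over 32851 promoter windows of the same length, 12.4% held TATAAA, 33.8% CCAAT, 1.55% TGACGTCA, 14.0% AGGTCA, 16.1% AGAACA, 10.4% GTTGCC and 6.55% GATAAG. The bases G and C made up 52.4% of the Aqp8 window, 40.4% and 41.6% of the upstream and downstream Aqp9 windows and 64.0% of that of Aqp3, beside a median of 52.4% over all windows. A match to so few letters is a description, and its absence says nothing about any factor.

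Aqp7, the aquaglyceroporin through which fat cells release glycerol and which late spermatids and sperm also carry, was low on a few arrays early in the cycle. Its log2 intensity (probe set 10512145) was 12.72 and 12.26 in XII-I, 12.84 and 12.26 in II-IV, 13.08 and 12.86 in IV-VI, 13.15 and 13.06 in VII, 13.04 and 12.99 in VIII-IX, and 13.12 and 13.14 in IX-XI. XII-I sample 2 and II-IV sample 2, neighbours on the ring, shared the lowest value. The mean was 13.13 ± 0.02 (SD, n = 2) in IX-XI, against 12.49 ± 0.33 in XII-I, a 1.56-fold difference. II-IV (12.55 ± 0.41) overlapped XII-I, and IV-VI (12.97 ± 0.16) stood above II-IV without overlap. VIII-IX (13.02 ± 0.03) overlapped IV-VI, and IX-XI overlapped VII (13.11 ± 0.06). Without XII-I sample 1 the range was 0.87 log2, and without II-IV sample 1 also 0.87 log2, in place of 0.64. Aqp7 did not run with Aqp8 (r = 0.01) and correlated with Aqp9 at r = -0.37 over the 12 arrays. The sum of the 6 measured adipocyte markers of 7 ranged from 1348 to 1474 in XII-I, 1366 to 1525 in II-IV, 1397 to 1549 in IV-VI, 1398 to 1414 in VII, 1510 to 1513 in VIII-IX and 1524 to 1565 in IX-XI.

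Aqp11, a channel of intracellular membranes whose loss in mice causes polycystic kidneys, was nearly level. Its log2 intensity (probe set 10565627) was 12.91 and 12.85 in XII-I, 12.80 and 12.89 in II-IV, 12.82 and 12.90 in IV-VI, 12.80 and 12.58 in VII, 12.71 and 12.69 in VIII-IX, and 12.64 and 12.63 in IX-XI. The mean was 12.88 ± 0.04 (SD, n = 2) in XII-I, against 12.63 ± 0.01 in IX-XI, a 1.19-fold difference, and 67.3% of all genes ranged more widely. All 6 arrays of XII-I, II-IV and IV-VI lay above those of VIII-IX and IX-XI, while VII sample 2, at 12.58, was the lowest of all. XII-I, IV-VI (12.86 ± 0.06) and II-IV (12.85 ± 0.06) overlapped each with the next, and so did VIII-IX (12.70 ± 0.02), VII (12.69 ± 0.15) and IX-XI.

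Aqp5, the channel of salivary, sweat and airway glands, stood out on a single array. Its log2 intensity (probe set 10426767) was 7.77 and 7.94 in XII-I, 7.90 and 7.95 in II-IV, 7.88 and 7.83 in IV-VI, 7.92 and 8.52 in VII, 7.81 and 7.96 in VIII-IX, and 7.95 and 8.04 in IX-XI. VII sample 2, at 8.52, was the highest, and the other 11 arrays lay between 7.77 and 8.04. The mean was 8.22 ± 0.42 (SD, n = 2) in VII, against 7.86 ± 0.12 in XII-I, a 1.29-fold difference, and the arrays of the groups overlapped at every step of the order. Without VII sample 2 the range of Aqp5 was 0.14 log2 in place of 0.36, and without VII sample 1 it was 0.67. The same array carried the high sums of macrophage, Leydig and Sertoli markers given above, and of the efferent duct and epididymal list led by Lcn2. The part of these markers in the Aqp5 value was not tested. Of the neighbours of Aqp5 on chromosome 15, Aqp2 was also highest on VII sample 2, at 9.05 against 8.04 to 8.66 on the other arrays. Aqp6, on the other side, was not, at 6.76 against 6.39 to 7.13. Over all arrays Aqp5 correlated with Aqp2 at r = 0.77 and with Aqp6 at r = 0.25.

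Aqp1, the water channel of red blood cells, capillary endothelium and the efferent ducts, and Aqp4, the channel of astrocyte end feet, were nearly level. The log2 intensity of Aqp1 (probe set 10538459) was 7.10 and 7.27 in XII-I, 7.21 and 7.28 in II-IV, 7.30 and 7.24 in IV-VI, 7.20 and 7.18 in VII, 7.16 and 7.36 in VIII-IX, and 7.43 and 7.44 in IX-XI. Both IX-XI arrays were the highest, with a mean of 7.44 ± 0.01 (SD, n = 2), against 7.18 ± 0.12 in XII-I, a 1.19-fold difference. The log2 intensity of Aqp4 (probe set 10457614) was 6.43 and 6.61 in XII-I, 6.43 and 6.54 in II-IV, 6.47 and 6.47 in IV-VI, 6.50 and 6.50 in VII, 6.35 and 6.69 in VIII-IX, and 6.58 and 6.73 in IX-XI. Its mean was 6.66 ± 0.11 in IX-XI, against 6.47 ± 0.00 in IV-VI, a 1.14-fold difference, and the groups overlapped at every step of the order. The Aqp4 probe set was among the dimmest 30% by mean, below 7.25 log2, and Aqp1, at a mean of 7.26, lay just above that bound. The deposited table gives no detection call, so whether these 2 transcripts were above background is unknown. The same holds for Aqp3, at a mean of 7.47.

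Vascular endothelium markers, all 9 measured, summed to 2331 to 2406 in XII-I, 2261 to 2554 in II-IV, 2420 to 2442 in IV-VI, 2446 to 2781 in VII, 2274 to 2355 in VIII-IX and 2408 to 2781 in IX-XI. VII sample 2 and IX-XI sample 2 shared the highest rounded sum, with Aqp1 at 7.18 and 7.44 on these arrays. Of 7 red blood cell markers 3 were measured, and their sum was 1010 to 1564 in XII-I, 1355 to 1653 in II-IV, 717 to 1180 in IV-VI, 536 to 608 in VII, 427 to 584 in VIII-IX and 521 to 576 in IX-XI. The course of that sum was that of Alas2, the erythroid enzyme of heme synthesis (5.84-fold, highest in II-IV). Slc4a1, the anion exchanger of red cells, had its highest mean in IX-XI, as Aqp1 did, with means 1.205-fold apart (limma's F test, adjusted p = 0.71). Epb42 had its highest mean in XII-I, where Aqp1 was lowest, with means 1.105-fold apart (adjusted p = 0.91). The part of endothelial and red blood cells in the level of Aqp1 was not tested.

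**Figure D4:**
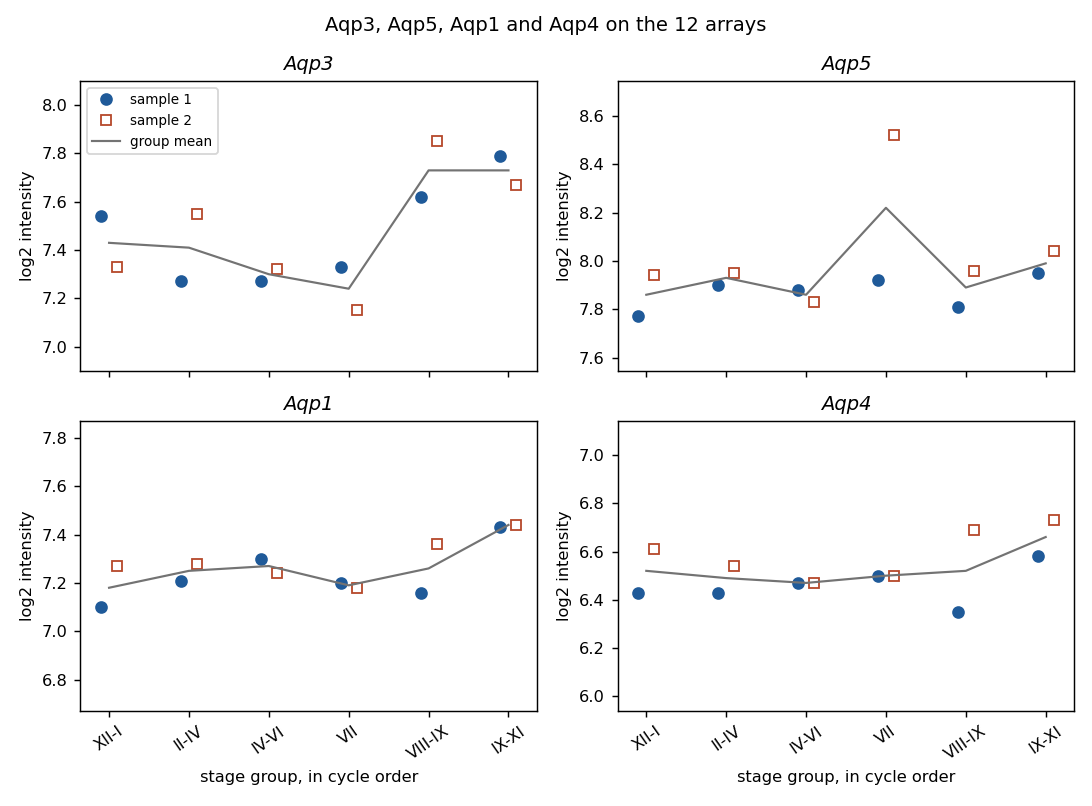
Log2 intensity of Aqp3, Aqp5, Aqp1 and Aqp4 (vertical axis, the same span of 1.2 log2 units in each panel) in the 6 stage groups in cycle order. Points are the 2 samples of a group and the line joins the group means. Aqp3 is highest in VIII-IX and IX-XI at 7.73, and the single high Aqp5 value, 8.52, is VII sample 2.

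The other 4 measured aquaporins were tested, since they were no members. In limma's F test over the 6 groups none of Aqp2, the vasopressin-regulated channel of the collecting duct, Aqp6, a channel of intracellular vesicles in kidney, Aqp12, a channel of pancreatic acinar cells, and Mip, the lens channel, passed an adjusted p of 0.05. At an unadjusted p under 0.05 the count was also 0 of 4. The ranges of group means were 0.49 log2 for Aqp2 (adjusted p = 0.52), 0.36 for Mip (adjusted p = 0.59), 0.30 for Aqp6 (adjusted p = 0.82) and 0.10 for Aqp12 (adjusted p = 0.98). A p above the threshold does not show that they were level. Mip and Aqp6 lay below 7.25 log2, the bound of the dimmest 30% of probe sets, on every array. Whether these transcripts were above background is unknown.

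For each member, the genes most alike were taken as those with the highest Pearson correlation of log2 intensity over the 12 arrays among genes ranging at least 2-fold. Around Aqp8 stood Krt88, a keratin (r = 0.989), Fam186a (r = 0.988), Lmbrd1, a lysosomal exporter of cobalamin (r = 0.986), Togaram1, a microtubule regulator of cilia (r = 0.986), Plac8l1 (r = 0.985), Ccdc105 (r = 0.984), Ttll7, a tubulin polyglutamylase (r = 0.984), and Rec8, a meiotic cohesin subunit (r = 0.983). Fam186a had a 10.9-fold range, with 11.24 in IV-VI, against 7.79 in VIII-IX. High correlations were common along this ring, with 522 genes above 0.9 and 464 below -0.9 for Aqp8, and 674 above 0.9 and 477 below -0.9 for Aqp9. Over all genes, whatever their range, the count above 0.9 was 382 for Aqp7, 245 for Aqp4, 93 for Aqp5, 69 for Aqp11, 52 for Aqp1 and 46 for Aqp3.

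Most alike to Aqp9 were Zfp748, a zinc finger gene (r = 0.996), Ppp1r27, a regulatory subunit of protein phosphatase (r = 0.994), and Zbtb42, a zinc finger transcription factor (r = 0.994), all highest in XII-I. Zbtb42 ranged 4.43-fold, at 10.99 in XII-I, against 8.84 in IV-VI. Most alike to Aqp7 were Piwil1, a piRNA-binding protein of spermatocytes and round spermatids (r = 0.994), Fbxo24 (r = 0.993) and Saxo1, a microtubule stabilizer of cilia and sperm tails (r = 0.992), all highest in IX-XI. Most alike to Aqp3 were Afap1, an actin filament protein (r = 0.938), Fez1 (r = 0.931) and Mfsd9 (r = 0.890). Most alike to Aqp5 were Gpnmb, a glycoprotein of macrophages (r = 0.939), Timp1, an inhibitor of matrix metalloproteinases (r = 0.935), and Lrg1 (r = 0.934). All 3 were high on VII sample 2 alone, at 10.43 for Gpnmb, 11.27 for Timp1 and 10.98 for Lrg1, and none exceeded 8.69 on any other array. VII sample 1 was at 6.97 for Gpnmb and 7.84 for Lrg1. Aqp11 ran closest to Mdga2 (r = 0.915), Agtr1a, an angiotensin receptor (r = 0.907), and Slc25a2, a mitochondrial ornithine carrier (r = 0.906). Among genes ranging at least 2-fold, the highest for Aqp1 was Col26a1 (r = 0.586), ahead of Nim1k (r = 0.557) and Tm4sf4 (r = 0.552), and for Aqp4 it was Ccl8 (r = 0.511), ahead of Col26a1 (r = 0.490) and Acer2 (r = 0.388).

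Genes beside the aquaporins on the chromosome were looked at for a shared course, a choice made after seeing the data. Nearest to Aqp8 on chromosome 7 were Lcmt1, a methyltransferase of protein phosphatase 2A, and Zkscan2. Lcmt1 was highest in XII-I at 10.42, against 9.67 in VII (limma's F test, adjusted p = 0.014, and 0.096 without sample 2 of VIII-IX and of IX-XI), and correlated with Aqp8 at r = -0.05. Zkscan2 (adjusted p = 0.090) correlated with it at r = 0.45. Aldh1a2, a retinal dehydrogenase that lies next to Aqp9 on chromosome 9, was at 11.74 in XII-I, against 11.34 in VII (adjusted p = 0.12), and correlated with Aqp9 at r = 0.84. Aqp7 and Aqp3 are neighbours on chromosome 4 and correlated with each other at r = 0.12. Beside them, Nol6, a nucleolar protein, correlated with Aqp3 at r = -0.90 (adjusted p = 0.15 over the 6 groups) and Nfx1, a zinc finger protein, with Aqp7 at r = 0.85 (adjusted p = 0.067). Clns1a, a chloride current regulator next to Aqp11 on chromosome 7, correlated with Aqp11 at r = 0.65 (adjusted p = 0.082 over the 6 groups). Beside Aqp1, Mindy4 correlated with it at r = -0.24 and Ghrhr at r = 0.43. Beside Aqp4, Kctd1 correlated with it at r = 0.58 and Chst9 at r = 0.52. For scale, 674 genes had r above 0.9 with Aqp9 and 382 with Aqp7, and 105 had r below -0.9 with Aqp3.

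Genes of glycerol, peroxide and ammonia handling, and of volume, ion and acid-base transport, made up 4 lists with 77 measured genes, none an aquaporin. In limma's F test over the 6 groups 16 of the 77 passed an adjusted p of 0.05, where 19.9% of all genes did. Of the 16, 7 had their lowest mean in VIII-IX, as did 23.8% of all genes past the test, and that difference was not tested. By highest mean, 2 were in XII-I, 3 in II-IV, 3 in IV-VI, 3 in VII, 3 in VIII-IX and 2 in IX-XI. For 12 of the 16, leaving out 1 array moved the highest or the lowest mean to another group. All 16 calls ended in a fit without sample 2 of VIII-IX and of IX-XI, an alternative added after seeing the data.

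Of 32 measured genes of volume, ion and acid-base transport, 5 passed (15.6%). Slc6a6, the transporter of the osmolyte taurine, reached 12.21 ± 0.05 (SD, n = 2) in IV-VI, against 9.80 ± 0.43 in VIII-IX, a 5.29-fold difference (limma's F test, adjusted p = 0.023). On single arrays it was 10.47 and 11.54 in XII-I, 12.13 and 11.60 in II-IV, 12.24 and 12.17 in IV-VI, 11.99 and 11.83 in VII, 10.11 and 9.50 in VIII-IX, and 10.44 and 11.44 in IX-XI. It followed Aqp8 at r = 0.98 over the 12 arrays, which 0.0903% of all genes exceeded. Slc9a3r1, a scaffold of membrane transporters, ranged 2.52-fold (adjusted p = 0.015) and Slc4a4, a sodium bicarbonate cotransporter, 2.35-fold (adjusted p = 0.013), both highest in II-IV and lowest in VIII-IX. Slc12a2, a sodium potassium chloride cotransporter that sets cell volume, had its highest mean in XII-I and its lowest in VII, 1.60-fold apart (adjusted p = 0.017). With Aqp8, r was 0.77 for Slc9a3r1, 0.49 for Slc4a4 and -0.24 for Slc12a2. With Aqp9 it was -0.52, -0.14 and 0.59. Slc6a6 kept its call in 8 of 12 leave-outs of a single array, and Slc9a3r1, Slc4a4 and Slc12a2 in all 12.

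Of 16 measured genes of glycerol and triglyceride handling, 5 passed (31.2%). Plin2, a coat protein of lipid droplets, reached 11.85 ± 0.15 (SD, n = 2) in IV-VI, against 9.12 ± 0.76 in VIII-IX, a 6.63-fold difference (limma's F test, adjusted p = 0.030). Gpd1, which links glycerol phosphate to glycolysis, reached 10.53 ± 0.03 in VII, against 9.06 ± 0.39 in VIII-IX, a 2.76-fold difference (adjusted p = 0.025). Both followed Aqp8 at r = 0.95, which 0.702% of all genes exceeded for Gpd1 and 0.858% for Plin2. Both opposed Aqp9 at r = -0.97, where 99.9% of all genes had a higher r for Gpd1 and 99.8% for Plin2. Mgll, which frees glycerol from monoglycerides, had means 4.23-fold apart, the highest in IX-XI and the lowest in II-IV (adjusted p = 0.031). It correlated with Aqp8 at r = -0.6 and with Aqp9 at r = 0.33. Agpat2, which builds phosphatidic acid, had means 2.20-fold apart, the highest in VIII-IX and the lowest in VII (adjusted p = 0.025). It correlated with Aqp9 at r = 0.85, which 6.05% of all genes exceeded, and with Aqp8 at r = -0.88. Plin2 passed in 6 of 12 leave-outs, Gpd1 in 8, Mgll in 5 and Agpat2 in 7.

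**Figure D5:**
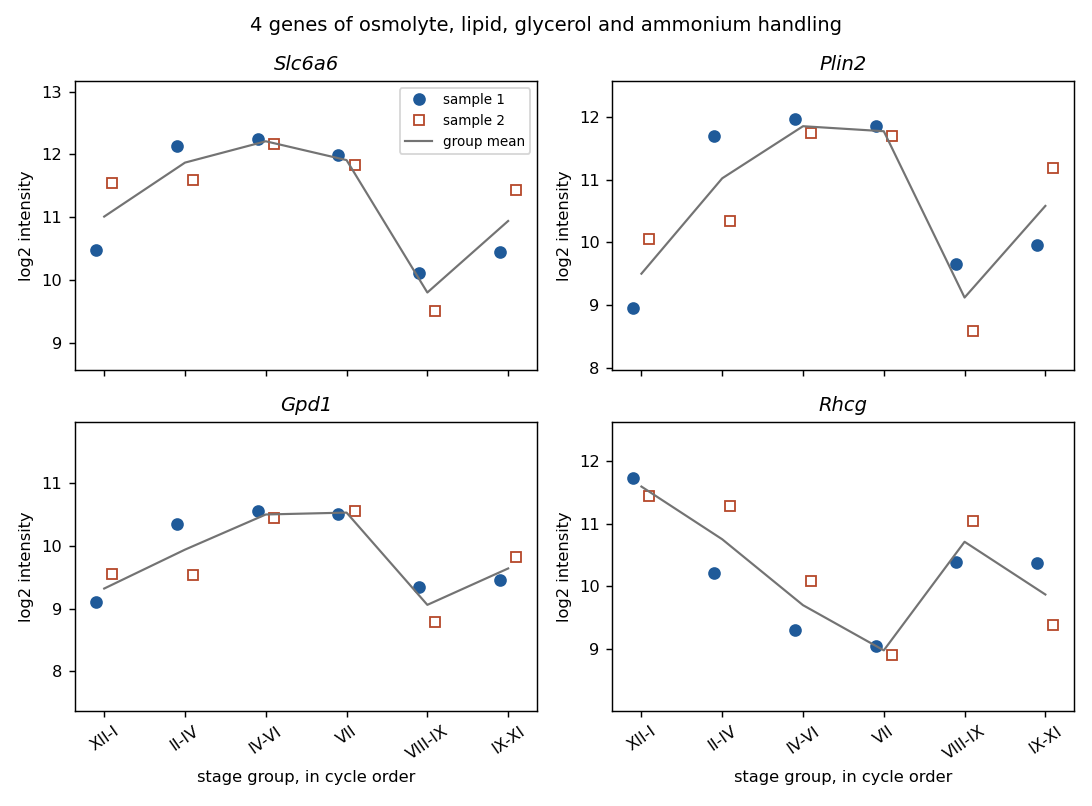
Log2 intensity of the taurine transporter Slc6a6, the lipid droplet protein Plin2, the glycerol phosphate dehydrogenase Gpd1 and the ammonium transporter Rhcg (vertical axis, the same span of 4.6 log2 units in each panel) in the 6 stage groups in cycle order. Points are the 2 samples of a group and the line joins the group means. Slc6a6, Plin2 and Gpd1 are lowest in VIII-IX, at 9.80, 9.12 and 9.06, and Rhcg is highest in XII-I at 11.59.

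Of 19 measured genes of hydrogen peroxide handling 4 passed (21.1%), and of 10 genes of ammonia and urea handling 2 passed (20%). The peroxiredoxins Prdx1 and Prdx2, which reduce peroxide in the cytosol, were highest in VII and lowest in IX-XI, by 1.65-fold (limma's F test, adjusted p = 0.033) and 1.76-fold (adjusted p = 0.026). Without VII sample 2, at 11.64, the highest mean of Prdx1 was that of IV-VI. Prdx4, the peroxiredoxin of the endoplasmic reticulum, was 1.83-fold higher in VIII-IX than in II-IV (adjusted p = 0.025), and Sod3, the extracellular superoxide dismutase, 2.53-fold higher in VIII-IX than in IV-VI (adjusted p = 0.039). Rhcg, an ammonium transporter, reached 11.59 ± 0.21 (SD, n = 2) in XII-I, against 8.98 ± 0.11 in VII, a 6.10-fold difference (adjusted p = 0.025). It correlated with Aqp9 at r = 0.84, which 6.58% of all genes exceeded. Arg2, a mitochondrial arginase, was 2.02-fold higher in II-IV than in VIII-IX (adjusted p = 0.023). With Aqp8, r was 0.63 for Prdx1, 0.49 for Prdx2, -0.78 for Prdx4, -0.87 for Sod3, -0.61 for Rhcg and 0.86 for Arg2. Single arrays ended the call in 7 of 12 leave-outs for Sod3 and Prdx1, 6 for Prdx2, 3 for Prdx4 and Rhcg and 4 for Arg2.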

How the data were processed

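The deposited table holds an intensity per probe set and sample, which the authors obtained with RMA (background correction, quantile normalization and summary of a set's probes) per the submitters' processing notes. For the RMA version and the annotation build, the sources used here give no statement. The intensities were linear, from 24.97 to 21760, and were taken to log2 with nothing added, so a change is relative to the rest of the array. The 28853 probe sets include 21789 with a single gene symbol, 1621 with several and 5443 with none listed. Probe sets with 1 symbol were used, the brightest per gene, which left 19938 genes.

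For genes other than the members, the test was the limma F test (limma 3.58.1, R 4.3.3), with 6 group means, 12 arrays, 6 residual degrees of freedom and Benjamini-Hochberg adjustment over all genes. The fit was also run on simulated data with independent noise and changes in VIII-IX alone. Those data lack the interleaving of the real arrays, so the run does not bear on how firm the calls are. Contrasts of each group with the other 5 were fitted but are not reported, since the counts in XII-I, VIII-IX and IX-XI fell to 0 without 1 array. Named list genes are the 4 widest ranging past the F test. The lists of most alike genes hold 8 genes for Aqp8 and 3 for each other member and pass over predicted genes, receptor families and small RNAs. The members and lists were chosen with earlier results of these data known. Sequences are from RefSeq, GRCm38.p6.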

Additional observations from a re-analysis of the deposited data

How the results depend on the processing

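The range of group means of Aqp8 stayed between 3.01 and 3.83 log2 when each array was left out in turn, and those of Aqp9 between 1.40 and 1.82, Aqp3 between 0.44 and 0.61, Aqp4 between 0.11 and 0.31 and Aqp11 between 0.23 and 0.30, all within the spread between samples of the main values. Those of Aqp1 ran from 0.244 to 0.338, Aqp5 from 0.138 to 0.665 and Aqp7 from 0.583 to 0.874. With VIII-IX and IX-XI as 1 group, added after seeing the data, the Aqp1 range was 0.164. Repeated quantile normalization and subtraction of the array median moved no member's range beyond that spread. Each member has 1 probe set, so averaging all probe sets of a gene could not change its range. Leaving out the dimmest 30% of probe sets removed Aqp4 and could not change the range of a member that was kept. By the F test 3974 genes passed, and this count ran from 1517 to 4269 over the leave-outs of 1 array, and the list counts from 1 to 4 for glycerol and triglyceride handling, 3 to 7 for volume, ion and acid-base transport, 0 to 9 for hydrogen peroxide and 1 to 2 for ammonia and urea. Without sample 2 of VIII-IX and of IX-XI together, 19 genes passed and 0 in each of these 4 lists. With VIII-IX and IX-XI as 1 group, the volume and ion list had 8. The causes were not tested. Whether sample numbers pair the samples was not settled: of 15 correlations of their deviations between groups, from -0.354 to 0.541, 7 exceeded 0.1. A replicate block enters the F test alone, so it could not change the ranges. With the number as that block 4145 genes passed and the call of Sod3 ended (adjusted p = 0.052 in limma). Array quality weights ended that of Mgll (adjusted p = 0.059).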
